A study of Drosophila melanogaster with 6 samples.

Results

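Adipokinetic hormone and the enzymes of trehalose and glycogen were measured as 8 genes, by 9 of the 18769 probe sets tested, in larvae whose mothers had eaten food with a control or a high content of sucrose. The members were Akh, AkhR, Treh, Tps1, AGBE, UGP, Glys and Glyp, taken as the probe sets whose only gene in the platform's table is the listed gene, 8 genes of 11982 so measured. The last 2 were listed as GlyS and GlyP and were matched through synonyms in RefSeq, which spells them Glys and Glyp. Each gene had 1 probe set, except AkhR, which had 2.

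RNA came from whole male larvae of the L3 stage (the last before pupation) of w1118, a white-eyed laboratory strain of Drosophila melanogaster, with 3 Affymetrix arrays per maternal diet. Control mothers ate food with 0.15 M sucrose and high-sucrose mothers food with 1 M sucrose for 7 days. Both were mated to w1118 males on control food, and all offspring grew on control food at 25 C. The value for hours of fresh food was 12 for every array of either group. By these fields the groups differ in the mothers' diet; the titles instead call the larvae themselves reared on control or high-sugar food. The labels also name the larvae as mid-stage in some fields and as wandering in others, and the number of larvae behind each array is not stated.

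Insects carry trehalose, a disaccharide of glucose, as the main sugar of the haemolymph, and store glucose as glycogen in fat body and muscle. Adipokinetic hormone (AKH), a peptide made by the neurosecretory cells of the corpora cardiaca in the ring gland, plays a part like that of glucagon in mammals: through its receptor on fat body cells it mobilises glycogen and stored fat and raises circulating sugar. UDP-glucose, made by the enzyme of the gene UGP, is the donor for both trehalose and glycogen.

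None of the 8 genes passed the threshold for a difference between the maternal diets, an adjusted p under 0.05 over all probe sets, in limma's test. At an unadjusted p under 0.05 there were 2, Akh on the higher and Treh on the lower side. Over all probe sets 0.623% passed the adjusted threshold, 0.0533% as higher and 0.57% as lower, and 12.4% had an unadjusted p under 0.05 (3.59% on the higher and 8.8% on the lower side). In Akh and Treh alone of the 8 genes did the 3 arrays of one group not overlap those of the other, and 18.5% of all probe sets showed that, 5.96% as higher and 12.6% as lower. A share of 2 in 8 is near that background. The median log2 difference of the 8 genes, high-sucrose minus control, was -0.049, beside -0.034 over all probe sets, with 2 genes above 0 and 6 below. The side of that median is not settled: quantile scaling put it at 0.020 and cyclic loess at 0.021, each with 6 genes above 0, beside 0.003 and 0.001 over all probe sets.

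**Figure D1:**
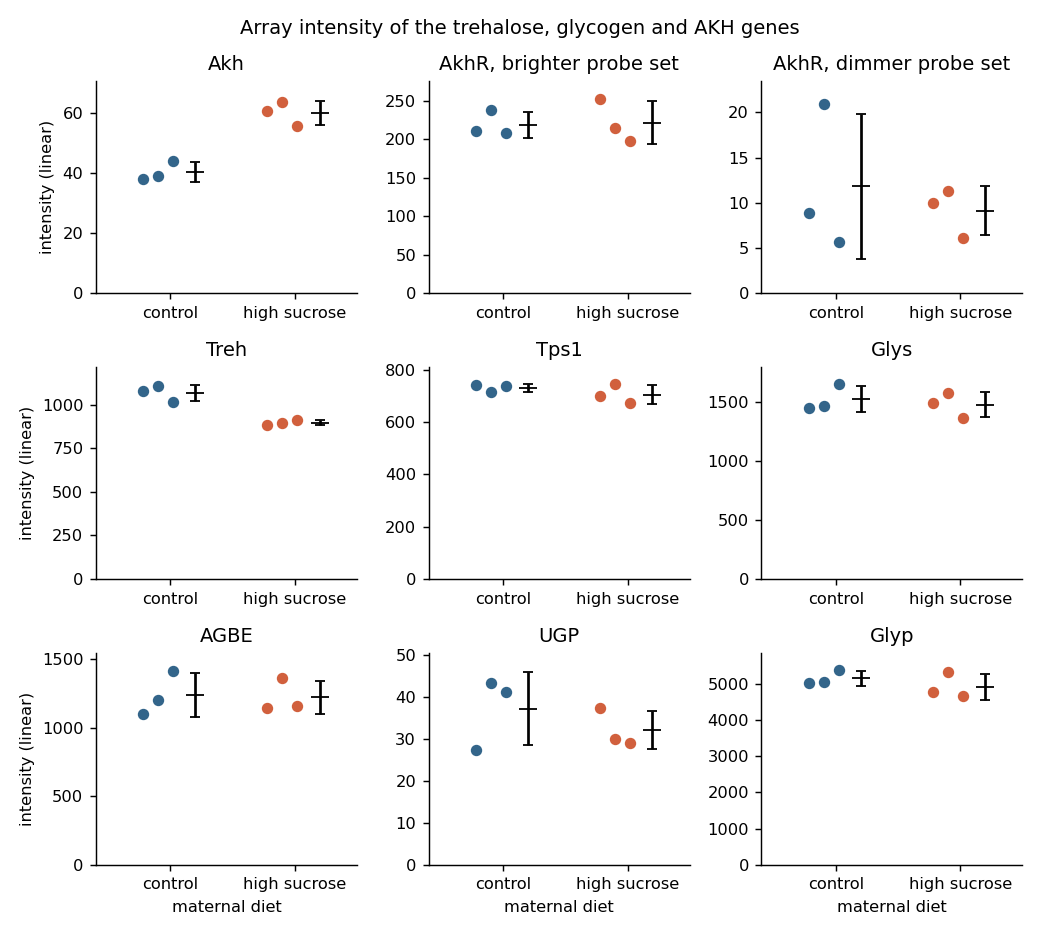
Array intensity (linear scale, axes from 0) of the 9 probe sets of the 8 genes by maternal diet. Each point is 1 array in the order 1 to 3, and the bars give the mean and SD of the 3 arrays. The groups lie apart for Akh (control 37.98 to 43.97, high sucrose 55.59 to 63.56) and Treh (control 1012 to 1106, high sucrose 881.4 to 911.6) and overlap for the other probe sets.

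Akh encodes the hormone precursor. Its intensity was 37.98, 39.05 and 43.97 in control arrays 1 to 3 and 60.79, 63.56 and 55.59 in high-sucrose arrays 1 to 3. Every high-sucrose array lay above every control array, and the gap between the groups was wider than the spread within either of them. The mean was 1.49 times the control mean, 59.98 ± 4.05 against 40.33 ± 3.19 in intensity (mean ± SD, n = 3 each, as throughout). On the scale of log2(intensity + 16), which damps the differences of dim probe sets, the difference by limma was 0.43 ± 0.11 (SE; 95% interval 0.18 to 0.68; adjusted p = 0.151). It ranked 432 by p among all probe sets and did not pass the threshold. The control values lay below the array medians (51.46 to 55.72 over the 6 arrays) and the high-sucrose values above them. The size of the difference rests on the pseudocount: it was 0.56 with a pseudocount of 1 and 0.25 with 64, not past the threshold in either (adjusted p = 0.149 and 0.139; 0.118 to 0.4 over all alternatives).

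The other markers listed for the corpora cardiaca did not separate the groups. Lst encodes limostatin, a peptide hormone of the corpora cardiaca known to lower insulin release in adult flies. Its intensity was 2162, 1727 and 1507 in control and 1755, 1535 and 1647 in high-sucrose arrays, overlapping between the groups (log2 difference -0.11; adjusted p = 0.733). The transcription factor gene glass (gl) was dim in both groups, at 15.28 to 28.97 under the control and 18.0 to 25.92 under the high-sucrose diet (adjusted p = 0.905). Which cells gave the Lst and gl values in RNA of whole larvae was not tested, so they are no measure of the amount of corpora cardiaca. In such RNA, more cells of a type and more RNA per cell cannot be told apart.

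AkhR encodes the receptor, a G protein-coupled receptor of fat body cells. The brighter of its probe sets had intensities of 210.1, 238.6 and 207.6 in control and 252.3, 214.3 and 198.2 in high-sucrose arrays. The groups overlapped fully, with the lowest and the highest value both in high-sucrose arrays. The log2 difference was 0.013 (SE 0.0975; adjusted p = 0.97), and its 95% interval, -0.21 to 0.23, corresponds to ratios of intensity + 16 from 0.866 to 1.18. The dimmer probe set lay under the lower quartile of 5 of the 6 arrays, at 5.62 to 20.88 among the control and 6.06 to 11.27 among the high-sucrose arrays, and its difference of -0.12 had an interval from -0.57 to 0.34 (adjusted p = 0.858). The groups lay apart for Akh and overlapped for AkhR, but neither gene passed the threshold. The 95% intervals of Akh (0.18 to 0.68) and of the brighter AkhR probe set overlap. A test of the one difference against the other was not run.

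Tps1 encodes the enzyme that makes trehalose from UDP-glucose and glucose 6-phosphate, chiefly in the fat body. Its intensity was 741.9, 712.6 and 737.4 in control and 697.1, 745.3 and 670.6 in high-sucrose arrays. The highest and the lowest of the 6 values were both in high-sucrose arrays. The log2 difference of -0.053 (adjusted p = 0.753) had an interval from -0.18 to 0.076, or ratios of intensity + 16 from 0.882 to 1.05.

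Treh encodes trehalase, which splits trehalose into glucose. The control arrays read 1080, 1106 and 1012 and the high-sucrose arrays 881.4, 894.5 and 911.6 in intensity. All 3 high-sucrose arrays lay below all control arrays, and they were close to each other, with an SD of 1.69% of their mean against 4.55% in control arrays. The high-sucrose mean was 15.9% below the control mean, 895.8 ± 15.2 against 1066 ± 48.5. The log2 difference of -0.25 ± 0.053 (SE; interval -0.37 to -0.13) ranked 238 among all probe sets. With an adjusted p of 0.0912 it missed the threshold, and it would pass at 0.10, as 1.41% of all probe sets do. Over the alternative settings the adjusted p lay between 0.0701 and 0.327.

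Of 7 midgut markers measured, 3 fell and the other 4 did not pass, and all 7 had differences below 0, with a median of -0.45 (-0.344 to -0.426 under the 3 other scalings). Over all probe sets 0.57% passed as lower. At an unadjusted p under 0.05 there were 6 of the 7, beside 8.8% of all probe sets on the lower side. The marker lists were chosen with earlier results of these data known, so these values are no independent measure of midgut RNA. The genes that fell were Bace, an aspartyl protease gene (2918 ± 151 to 1994 ± 41.6 in intensity; adjusted p = 0.00351), Mal-A1, a maltase gene (adjusted p = 0.00788), and Jon99Ci, a serine protease gene (adjusted p = 0.00788). Without control 2, Mal-A1 and Jon99Ci did not pass (adjusted p = 0.0796 and 0.0848), and without the intensity trend in the variances none of the 3 did (0.133 to 0.192). Jon65Aiii, the brightest of the list, was at 9658 ± 250 and 8618 ± 321 (adjusted p = 0.194). The intensity summed over the list was 23040 to 24020 in control larvae and 18310 to 18670 in those of high-sucrose mothers. For the 5 fat body markers it was 39940 to 42170 among control and 37700 to 38700 among high-sucrose arrays. All 5 of their differences lay below 0 and none passed the threshold by limma. Of these markers 3 had an unadjusted p under 0.05, beside 8.8% of all probe sets on the lower side. The brightest of the fat body markers were Lsp2 and Fbp2, with log2 differences of -0.13 and -0.10. Under quantile scaling and cyclic loess the fat body list had 2 genes above 0 and a median of -0.019 and -0.006. The 7 muscle markers had a median difference of 0.005 (0.032 to 0.089 under the other scalings) and overlapping sums, 28240 to 30700 and 28820 to 30860. The 6 neuron markers had a median of 0.008 and sums of 521.6 to 564.1 and 472.4 to 568.2, with elav and Rdl as the brightest (adjusted p = 0.858 and 0.744). The part of the tissues of these 4 lists in the values of Treh was not tested.

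**Figure D2:**
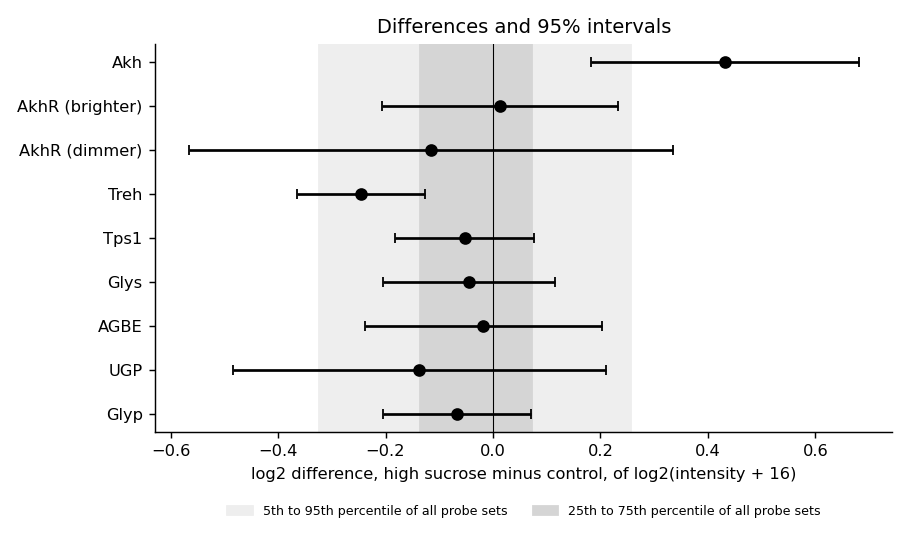
Log2 difference (high sucrose minus control, of log2 of intensity plus 16) of each of the 9 probe sets, with its 95% interval as a bar. The shaded bands give the 25th to 75th percentile (-0.135 to 0.073) and the 5th to 95th percentile (-0.324 to 0.257) of all 18769 probe sets. Akh lies above the wider band, Treh inside the wider band and below the narrower one, and the intervals of the other probe sets include 0.

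In none of UGP, Glys, AGBE and Glyp did the groups lie apart. UGP encodes UTP-glucose-1-phosphate uridylyltransferase, which makes UDP-glucose from glucose 1-phosphate. Its probe set was dim, under the median of every array, with 27.22, 43.19 and 41.05 in control and 37.22, 29.97 and 28.89 in high-sucrose arrays. The groups overlapped, and control array 1 held the lowest value of all. The log2 difference of -0.14 had an interval from -0.48 to 0.21 (adjusted p = 0.766), one of the widest among the members.

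Glys encodes glycogen synthase, which adds glucose from UDP-glucose to the growing chain. Its intensity was 1456, 1474 and 1655 in control and 1496, 1581 and 1367 in high-sucrose arrays. The means, 1528 ± 110 and 1481 ± 108, differed by less than either SD. The log2 difference was -0.045 (interval -0.20 to 0.12; adjusted p = 0.84).

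AGBE encodes the branching enzyme, which gives glycogen its branched form. It read 1101, 1201 and 1417 in control and 1147, 1361 and 1156 in high-sucrose arrays. The values overlapped and were more spread than those of Glys or Glyp, with an SD of 13.0% of the mean in control and 9.89% in high-sucrose arrays. The log2 difference was -0.018 (interval -0.24 to 0.20; adjusted p = 0.96).

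Glyp encodes glycogen phosphorylase, which releases glucose 1-phosphate from glycogen and is the step that AKH signalling switches on through phosphorylation. The control arrays read 5015, 5044 and 5386 and the high-sucrose arrays 4775, 5331 and 4655. High-sucrose array 2 lay among the control values and the other two below them. The difference of -0.067 had the narrowest interval of the glycogen genes, from -0.20 to 0.070, or ratios of intensity + 16 from 0.868 to 1.05 (adjusted p = 0.697). The signs for Tps1, Glys, Glyp and AGBE are not settled, since each turned to above 0 under quantile scaling and under cyclic loess.

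Within each group, the same arrays were high for several of these genes. Akh, Glys, Glyp and AGBE each had their highest control value in array 3 and their highest high-sucrose value in array 2, a pattern picked out after the values were seen. As deviations from the group's mean on the log2 scale, AGBE stood at 0.20 in control array 3 and 0.16 in high-sucrose array 2, Glys at 0.12 and 0.096, Glyp at 0.066 and 0.12, and Akh at 0.092 and 0.068. Treh went the other way in control array 3, its lowest control value at -0.073. Over all probe sets 16.9% had their highest values in these same arrays, and 21.8% did so in the brighter part of them (above the median of the mean intensity). Of the 10 other glycogen genes measured, 6 did so: Pgm1, PhKgamma, CG7766, CG8475, Hex-A and Pgi.

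Muscle markers were also high in these arrays. Their mean deviation was 0.070 in control array 3 and 0.071 in high-sucrose array 2, and 4 of 7 (up, Tm2, bt and sls) had their highest values in both. The brightest muscle markers were TpnC73F, which did not share the pattern (its highest values were in control array 2 and high-sucrose array 1), and Prm, highest in control array 3 but not in high-sucrose array 2. The fat body markers had a mean deviation of -0.074 and -0.026 in the same arrays. The part of muscle RNA in the spread of the glycogen genes was not tested.

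**Figure D3:**
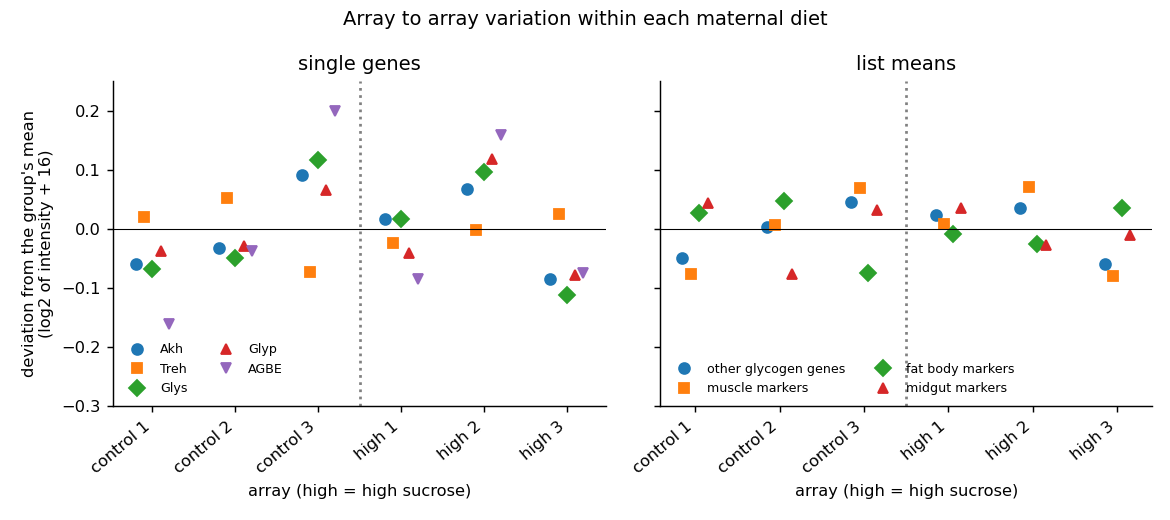
Deviation of each array from the mean of its maternal diet group, on the scale of log2(intensity + 16), for 5 single genes (left) and as the mean over 4 gene lists (right). Akh, Glys, Glyp and AGBE are highest in control array 3 and high-sucrose array 2, as are the means of the other glycogen genes and of the muscle markers, while Treh is lowest in control array 3.

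As a measure of likeness, Pearson's r was taken over the 6 arrays on the log2 scale, as a description without a test, since 6 values that share their arrays give high coefficients for many of the 10366 other genes compared. Among the members, r was 0.889 for Glys and Glyp, 0.854 for Glys and AGBE, 0.823 for Glyp and AGBE, and 0.883 for Tps1 and Glyp. For Akh and Treh it was -0.98, which mainly restates that their groups lie apart in opposite directions. After the group means were removed it was -0.783, which was not particular to this pair. By that measure Treh also ran against Glys (-0.779), AGBE (-0.626) and Glyp (-0.503). Akh ran with the same genes, at 0.997 for Glys, 0.873 for AGBE and 0.868 for Glyp. Akh, Glys, Glyp and AGBE are the genes that shared their highest arrays above.

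The genes most like Akh were UQCR-11L (r = 0.9906), CG46298 (0.9896) and CG17378 (0.9812), of which CG46298 rose (log2 difference 0.40; adjusted p = 0.0479), a call lost whichever array was left out (0.0827 to 0.209), with a pseudocount of 64 (0.0543), with the replicate block (0.137) and without the intensity trend (0.216). In UQCR-11L the groups lay apart by little, at 80.63 to 84.6 against 90.58 to 92.23 (adjusted p = 0.601). The genes most like Treh were CG8372 (0.9975), CG42846 (0.9952) and CG15170 (0.994). CG42846 fell, with 1330, 1385 and 1256 in control and 1062, 1053 and 1079 in high-sucrose arrays (adjusted p = 0.0387), a call also lost whichever array was left out (0.0694 to 0.156), with each of the 3 other scalings (0.106 to 0.145), with the replicate block (0.123) and without the intensity trend (0.273). CG15170 was close to the threshold (adjusted p = 0.0554). By the same measure, and named after the values were seen, Glyp was most like ND-42, a complex I subunit gene (0.9984), Mondo, a sugar-responsive transcription factor gene (0.9981), and SERCA, the calcium pump gene of the sarcoplasmic reticulum (0.9912). None of these 3 passed the threshold in limma's test (adjusted p = 0.693, 0.732 and 0.791).

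Genes around the members in the same pathways gave no calls either, where 0.623% of all probe sets passed. At that share, 0 calls in lists this short are no result about the pathways. The counts below at an unadjusted p under 0.05 stand beside 12.4% of all probe sets. Of 5 other trehalose genes measured 0 passed by limma, with 0 at an unadjusted p under 0.05 and a median log2 difference of 0.043. The trehalose transporter gene Tret1-1 had the smallest p of them, with 1796, 1650 and 1440 in control and 1877, 1612 and 1861 in high-sucrose arrays (log2 difference 0.13; adjusted p = 0.58). CG6262 and CG5177 followed (adjusted p = 0.802 and 0.857).

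Of 12 other glycogen genes listed 10 were measured and 0 passed by limma, with 1 at an unadjusted p under 0.05 and a median of -0.039, which turned to 0.033 under quantile scaling and 0.022 under cyclic loess. Hex-A, a hexokinase gene, was that one: it read 362.5, 377.0 and 400.8 in control and 317.8, 361.1 and 333.7 in high-sucrose arrays, without overlap (log2 difference -0.17; adjusted p = 0.38). Gbs-76A, a glycogen-binding subunit of protein phosphatase 1, which dephosphorylates the synthase and the phosphorylase, was at 74.3 ± 8.49 and 88.8 ± 7.79 (adjusted p = 0.468). PhKgamma, the catalytic subunit of the kinase that activates glycogen phosphorylase, had overlapping groups in its brightest probe set (adjusted p = 0.672).

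Of 13 genes listed for the processing and release of AKH 11 were measured, and 0 passed by limma, with 1 at an unadjusted p under 0.05 and a median of -0.11. That gene was Irk1, an inward rectifier potassium channel gene, at 438.4, 442.2 and 451.8 in control and 409.3, 398.8 and 393.1 in high-sucrose arrays (log2 difference -0.14; adjusted p = 0.322). The enzyme gene Pal1, which acts in peptide amidation, and sNPF-R, a neuropeptide receptor gene, came next (adjusted p = 0.586 and 0.588).

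Of 19 genes listed for AKH signal transduction 14 were measured, and 0 passed by limma, with 1 at an unadjusted p under 0.05 and a median of -0.051, which turned to 0.015 and 0.017 under the same scalings. That gene was Pka-R1, a regulatory subunit of protein kinase A, at 397.6, 444.1 and 418.9 in control and 493.6, 489.8 and 443.1 in high-sucrose arrays. The groups overlapped by a single pair of arrays (log2 difference 0.17; adjusted p = 0.341). CrebB, a transcription factor gene, was at 39.97 ± 7.24 and 53.12 ± 14.4 (adjusted p = 0.522). Orai, a calcium channel gene, had 2 probe sets that differed: the brighter overlapped between the groups (log2 difference -0.099; adjusted p = 0.57), and the dimmer read 127.0, 133.9 and 146.9 in control against 97.65, 102.6 and 109.7 in high-sucrose arrays (-0.35; adjusted p = 0.151).

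**Figure D4:**
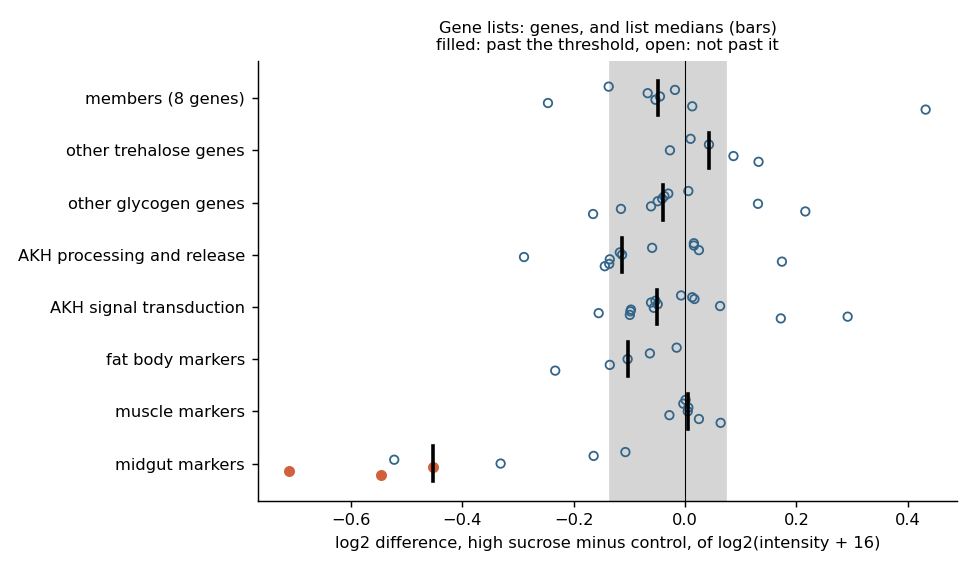
Log2 difference (high sucrose minus control, of log2 of intensity plus 16) of each measured gene of 8 lists, 1 point a gene, with the list median as a bar and the 25th to 75th percentile of all probe sets shaded. The medians of the members (-0.049) and of the trehalose, glycogen and AKH lists (0.043 to -0.113) lie inside the shaded range, and filled points, which passed the threshold, occur only among the midgut markers.

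No member neighbours another in the order of genes in RefSeq (Release 6 plus ISO1 MT). Of the 20 genes that overlap a member there or lie next to it, 19 had a probe set of their own, and 0 passed the threshold by limma, with 5 at an unadjusted p under 0.05, all on the lower side, beside 12.4% of all probe sets and 8.8% on that side. The smallest p were those of CG3987 beside Glys (911.2 ± 87.3 and 659.8 ± 61.3; log2 difference -0.46; adjusted p = 0.0611) and Spt-I beside AGBE (239.7 ± 5.88 and 196.6 ± 9.32; -0.27; adjusted p = 0.151). Both flanking genes of Akh, Ras64B and CG32260, had overlapping groups (adjusted p = 0.986 and 0.697). Rbpn-5, which overlaps Treh in that table, did not follow it, with 206.5 ± 15.5 and 205.2 ± 1.25 (adjusted p = 0.985). CG3652, which overlaps Tps1, had groups that lay apart on the lower side, at 734.1 ± 19.2 and 660.7 ± 19.2 (adjusted p = 0.282 by limma). UGP overlaps PGRP-LF and CG32040. The probe sets of Treh, Tps1 and UGP may thus lie in sequence shared with these genes, which the sources do not show.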

How the data were processed

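The authors deposited a linear intensity per probe set for each of the 6 arrays; their probe set summary and scaling are not given in the sources. Biotinylated cRNA was made from 2 ug of total RNA, per the labels' protocols. Of 18952 probe sets, 183 controls were left out. Genes came from the platform's table, in which 13647 probe sets carry 1 symbol, and from RefSeq; a gene with several probe sets was counted in lists by the one with the highest mean. Values were not scaled further.

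Log2(intensity + 16) was compared between 3 high-sucrose and 3 control arrays with limma 3.58.1 (R 4.3.3; variance trend with intensity; 4 residual and 5.16 prior degrees of freedom), with Benjamini-Hochberg adjustment across the whole table and a threshold of 0.05. The titles call the arrays biological replicates. The number of arrays limits the precision. The method was tested on simulated data.

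Members and lists were chosen with earlier results of these data known. The genes named are the members, up to 3 genes of smallest p in each pathway list and any that passed, the 3 genes most like Akh and Treh with a mean intensity of at least 16, and the 2 brightest genes of each marker list; other genes (Bace and Mal-A1 among them) were named after their values were seen. AstA, AstA-R2, sgg, Ggamma1, Pka-C1, Pka-R2, Lkb1 and Hsl had no matched probe set of their own and were not analysed here.

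Replicate numbers recur in both groups. The deviations of same-numbered arrays from their group means correlated at 0.0517, 0.0221 and -0.0429, so the numbers were not taken as pairs.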

Additional observations from a re-analysis of the deposited data

How the results depend on the processing

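No member passed the threshold under any alternative fit. Over these fits the log2 difference of Akh lay between 0.25 and 0.56 and that of Treh between -0.28 and -0.17, without a change of sign, and Treh (-0.25, adjusted p = 0.0912) passes only where the threshold is set at 0.10. The filter to the upper 50% of probe sets by mean left out Akh, UGP and the dimmer AkhR probe set, so it gave no value for them. Signs turned under quantile scaling and cyclic loess for Tps1 (0.007 and 0.001), Glys (0.016 and 0.022), Glyp (0.024 and 0.02) and AGBE (0.061 and 0.045), and for AGBE under median centring (0.009); the cause was not tested. With each array left out in turn, the difference ranged from -0.078 to 0.085 for AkhR (dimmer probe set -0.278 to 0.107), -0.093 to 0.013 for Glys, -0.098 to 0.081 for AGBE, -0.279 to -0.052 for UGP, -0.126 to -0.028 for Glyp, -0.093 to -0.019 for Tps1, 0.398 to 0.478 for Akh and -0.282 to -0.219 for Treh.

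Over all probe sets 10 were higher and 107 lower. These counts became 17 and 76 (quantile scaling), 23 and 110 (median centring), 17 and 85 (cyclic loess), 19 and 176 with the robust trend, 1 and 3 without the intensity trend, and 36 and 228 at an adjusted p of 0.10. Leaving out 1 array gave 2 to 9 higher and 11 to 154 lower, the fewest without control 2. With the replicate block, in which same-numbered arrays are treated as pairs, 4 were higher and 59 lower, and neither Akh (adjusted p = 0.309) nor Treh (0.221) passed; the arrays share a number only. The 4 pathway lists had 0 calls in every fit. Dim probe sets (UGP, the dimmer AkhR, Akh) have the wide intervals.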
